A study of Mus musculus with 2 samples.

Results

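Tac1, Tac2, Tacr1 and Tacr3, the genes of tachykinin peptides and of their receptors, were followed through the inhibitory and excitatory neurons of a sorted spinal cord lineage. The 4 genes were taken by name from the 19575 genes of the deposited count table. They were read in 6550 nuclei of 7610 in all: 2653 inhibitory-like and 888 excitatory-like nuclei of the naive library, and 2222 and 787 of the injured library.

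The nuclei came from adult mice of either sex that carried Pdyn-IRES-Cre(+/-) and R26-LSL-Sun1.eGFP(+/-), in both groups. Cre recombinase made under the prodynorphin gene (Pdyn) switches on a green nuclear envelope protein for the rest of the cell's life, so the sort keeps every cell that has ever used Pdyn, whether or not it still does. The dorsal cord at lumbar levels L3 to L5 was taken, and its green nuclei were sorted. The injured library pooled 8 mice whose left plantar hindpaw had been incised at postnatal day 3, and the naive library pooled 8 littermates given only isoflurane on that day. Each group is thus 1 pooled library: no difference between them has a replicate check, no test was possible, and the 95% intervals below cover counting error only.

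Tachykinins are short peptides cut from larger precursors and released by neurons. Tac1 encodes substance P and neurokinin A, and Tac2 encodes neurokinin B. Tacr1 encodes the NK1 receptor, which prefers substance P, and Tacr3 the NK3 receptor, which prefers neurokinin B; both couple to Gq proteins and excite the cells that carry them. In the dorsal horn the NK1 receptor is known from projection neurons that carry pain and itch signals to the brain, and substance P is made both by sensory fibres that enter the cord and by local excitatory neurons.

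The ligands share the end of their sequence, which is what all tachykinin receptors recognise. The coding stretches of the 3 peptides, read from GENCODE M21 transcripts (GRCm38, plus strand), are shown 5′ to 3′ with the codons of the shared ending (phenylalanine, a variable residue, glycine, leucine, methionine) in capitals.
substance P, Tac1 exon 3, chr6:7556732-7556764: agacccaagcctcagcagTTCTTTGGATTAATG
neurokinin A, Tac1 exon 6 of 7 in transcript Tac1-205, chr6:7559101-7559130: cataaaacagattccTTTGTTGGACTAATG
neurokinin B, Tac2 exon 5 of 7 in a coding transcript, chr10:127729116-127729145: gacatgcacgacttcTTTGTGGGACTTATG
The substance P stretch was in 3 of the 4 Tac1 transcripts annotated as coding (the fourth, Tac1-204, is an incomplete model) and the neurokinin A stretch in 2 of 4, so the Tac1 transcripts differ in which peptides they can give. Reads from the 3′ end of transcripts do not tell these forms apart, and a Tac1 count below covers both peptides. Both Tac2 coding transcripts held the neurokinin B stretch.

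The Tac1 gene spans 11 kb (chr6:7554879-7565834) and the Tac2 gene 7.29 kb (chr10:127724478-127731768). The receptor genes are far longer, 158 kb for Tacr1 (chr6:82402334-82560104) and 106 kb for Tacr3 (chr3:134829007-134934579). No other annotated gene overlaps any of the 4. Of the remaining family members, Tac4, which encodes hemokinin, had 20 UMIs in all nuclei, and the NK2 receptor gene Tacr2 was not analysed here. Levels are given as UMIs per 1000000 UMIs of the same class and library (CPM), and are compared only within a gene, since they are not scaled to gene length.

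Class names were rebuilt here from clusters, so they need not match the study's own. Summed over Slc32a1, Slc6a5, Gad1 and Gad2, the genes of GABA and glycine transmission, naive inhibitory-like nuclei held 489.3 CPM and injured ones 462.4 CPM, against 4.89 and 3.59 CPM of the glutamate transporter gene Slc17a6. Excitatory-like nuclei held 224.2 and 212.8 CPM of Slc17a6, against 30.7 and 25.4 CPM of the inhibitory set. Peptide and peptide receptor genes, the 4 members included, took no part in forming the clusters. The injured nuclei were deeper, with a median of 8464 UMIs against 6955, and 3 cell barcodes occurred in both libraries. Pdyn itself was at 2 or more UMIs in 107 of 2653 naive inhibitory-like nuclei (4.03%) and 60 of 888 naive excitatory-like nuclei (6.76%).

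Ligands and receptors were spread over the classes in different ways. Excitatory-like nuclei held 76.3% of the Tac1 and 77% of the Tacr1 UMIs of the series, inhibitory-like nuclei 89.1% of the Tacr3 UMIs, and Tac2 lay in both. Nuclei of unnamed clusters held 9.11% of the Tac1 and 16.7% of the Tacr1 UMIs. Tac1 stood at 89.3 CPM (82.9 to 96.2) in naive and 54.9 CPM (50 to 60.1) in injured excitatory-like nuclei, against 7.15 and 4.12 CPM in inhibitory-like nuclei, a ratio between the classes of 12.5 (10.4 to 15.1) and 13.3 (10.5 to 17.2). Tacr1 stood at 122.1 CPM (114.6 to 130.1) and 119.2 CPM (112.0 to 126.8) in excitatory-like nuclei, against 3.37 and 3.86 CPM, a ratio of 36.3 (28.1 to 47.5) in the naive and 30.9 (24.4 to 39.8) in the injured library. Both genes thus marked the excitatory side in each library, the receptor with the larger contrast.

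Tacr3 was the reverse. It stood at 94.7 CPM (90.4 to 99.2) in naive and 89.0 CPM (84.8 to 93.3) in injured inhibitory-like nuclei, against 10.9 CPM in the excitatory-like nuclei of each library, so it was 8.73 times (7.03 to 11) and 8.19 times (6.64 to 10.2) higher on the inhibitory side. Tac2 reached 22.1 CPM (20 to 24.3) and 24.0 CPM (21.8 to 26.3) in inhibitory-like and at 29.4 CPM (25.7 to 33.4) and 26.0 CPM (22.7 to 29.6) in excitatory-like nuclei. The excitatory over inhibitory ratio of Tac2 was 1.33 (1.13 to 1.57) in the naive library, and its interval held 1 in the injured library (1.08, 0.918 to 1.28).

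**Figure D1:**
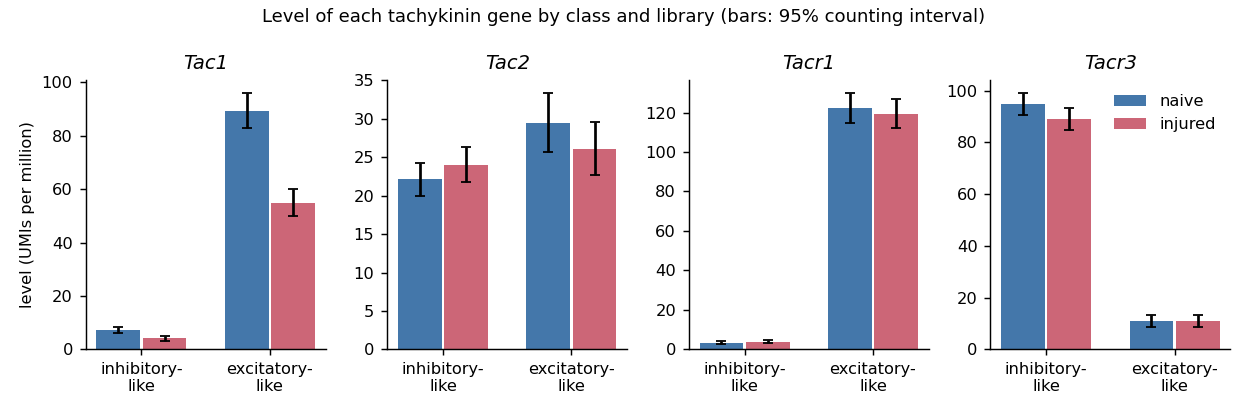
Level of each gene (UMIs per 1000000, linear axis from 0) in inhibitory-like and excitatory-like nuclei of the naive (blue) and injured (red) library, 1 panel per gene, with 95% counting intervals as bars. Tac1 and Tacr1 are high on the excitatory side, Tacr3 on the inhibitory side and Tac2 is at 22.1 to 29.4 in all 4 groups, and in excitatory-like nuclei only the Tac1 intervals of the libraries do not overlap.

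How many nuclei carried each gene depended on depth, so shares are also given after each nucleus was thinned to 3000 UMIs (1 and 3 excitatory-like nuclei and 26 and 13 inhibitory-like nuclei were left out as too shallow). Tacr1 had a UMI in 413 of 888 naive excitatory-like nuclei (46.5%) and 412 of 787 injured ones (52.4%), which became 25.5% and 26.1% after thinning. Tac1 had one in 223 (25.1%) and 169 (21.5%) of the same nuclei, and in 15.8% (13.4 to 18.4) and 12.2% (10.0 to 14.7) after thinning. Tacr3 had a UMI in 36.8% of naive and 36.6% of injured inhibitory-like nuclei, and in 22.5% and 20.7% after thinning. Tac2 had a UMI in 152 of 2653 (5.73%) and 161 of 2222 (7.25%) inhibitory-like nuclei, and in 3.58% and 4.07% after thinning.

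The low values on the far side of each contrast have to be read against free RNA, which gives UMIs in cells that do not make a gene. The 96 naive and 92 injured glia-like nuclei (astrocyte-like and oligodendrocyte-like, median depth 2158 and 3226.5 UMIs, against 6713 and 7864 in inhibitory-like nuclei) held Tac1 at 7.42 CPM (0.899 to 26.8) and 2.53 CPM (0.064 to 14.1), from 2 UMIs and 1 UMI. The Tac1 level of inhibitory-like nuclei lay inside both intervals, and only 5 of 2653 naive and 3 of 2222 injured inhibitory-like nuclei had 2 or more Tac1 UMIs. With so few UMIs these intervals are wide, and whether the low Tac1 level of inhibitory-like nuclei is free RNA was not tested. Tacr1 in glia-like nuclei was at 22.3 CPM (8.17 to 48.5) and 10.1 CPM (2.75 to 25.9), from 6 and 4 UMIs, all in astrocyte-like nuclei. Glia-like nuclei held Tacr3 at 26 CPM (10.4 to 53.5) and 12.6 CPM (4.10 to 29.5). The low levels of the receptor genes in the other neuron class were thus not above those of glia-like nuclei. After thinning to 1000 UMIs, the receptor genes in their leading class still stood above glia. Tacr1 was in 10.7% of naive excitatory-like nuclei and 0 of 95 naive glia-like nuclei (which allows up to 3.16%). Tacr3 was in 7.65% of naive inhibitory-like nuclei and 1 of 95 glia-like ones. In the injured library Tacr1 was in 11.3% and 1 of 92, and Tacr3 in 7.65% and 0 of 92. Tac1 was in 6.64% (5.10 to 8.49) of naive excitatory-like nuclei and 0 of 95 glia-like ones (0 to 3.81). In the injured library it was in 4.07% (2.80 to 5.69) and 0 of 92 (0 to 3.93), with overlapping intervals. Tac2 after that thinning was in 1.70% and 1.53% of inhibitory-like nuclei, no more than the 2.11% (0.256 to 7.40) and 2.17% (0.264 to 7.63) of glia-like nuclei. Its place is shown by the clusters described below, not by the class share.

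Tac1 was the only one of the 4 genes past a 1.5-fold difference between the libraries in the classes as named, and it was lower in the injured library in each class. Its injured over naive ratio was 0.615 (0.545 to 0.692) in excitatory-like nuclei, from 708 and 465 UMIs, and 0.576 (0.430 to 0.766) in inhibitory-like nuclei, from 136 and 78 UMIs. Among all genes with at least 100 UMIs, 281 of 11029 (2.55%) were lower by 1.5-fold or more in excitatory-like and 267 of 12845 (2.08%) in inhibitory-like nuclei, while 0.19% and 0.218% were higher by as much. Only 1.22% of those genes had a lower ratio than Tac1 in excitatory-like and 0.42% in inhibitory-like nuclei. The inhibitory value rests on the low level described above. The 1.5-fold size was not reached in excitatory-like nuclei with only Xist UMIs (log2 -0.57) or in inhibitory-like nuclei classed by their own transmitter UMIs (-0.51). Tacr1 in inhibitory-like nuclei, at a log2 ratio of 0.20 (1.14, 0.807 to 1.63), passed it at a finer clustering (0.77) and with unnamed neuron clusters added (0.68).

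Shorter genes as a whole leaned to the naive side. Among genes of 5 to 20 kb, the band that holds Tac1 and Tac2, the median log2 ratio was -0.17 in excitatory-like and -0.16 in inhibitory-like nuclei, against -0.08 for all genes in each class, and 3.87% and 2.37% were lower by 1.5-fold or more. The log2 ratio of Tac1, -0.70 and -0.80, was lower than these medians, but its rank among genes of that length was not computed. Sensory neurons are another known source of substance P RNA. In excitatory-like nuclei their markers (Scn10a, Trpv1, Calca, Avil, Prdm12) summed to 5.93 CPM in the naive library and 4.49 CPM in the injured one. In inhibitory-like nuclei the list summed to 11.5 and 9.72 CPM, with 3 and 4 of its genes above 0. These sums are over other genes, so their size cannot be set against the level of Tac1. Of its 5 genes, 3 were above 0 in naive excitatory-like nuclei (Trpv1 and Prdm12 were at 0) and 4 in injured ones (Scn10a was at 0). The part of gene length and of sensory neuron RNA in the Tac1 difference was not tested.

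The other genes were close to equal in the class where they were high. The injured over naive ratio was 0.976 (0.893 to 1.07) for Tacr1 in excitatory-like nuclei and 0.939 (0.878 to 1) for Tacr3 in inhibitory-like nuclei. For Tac2 it was 1.09 (0.948 to 1.24) in inhibitory-like and 0.883 (0.731 to 1.07) in excitatory-like nuclei. All 4 counting intervals lay within 1.5-fold in either direction. They do not cover differences between mice.

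**Figure D2:**
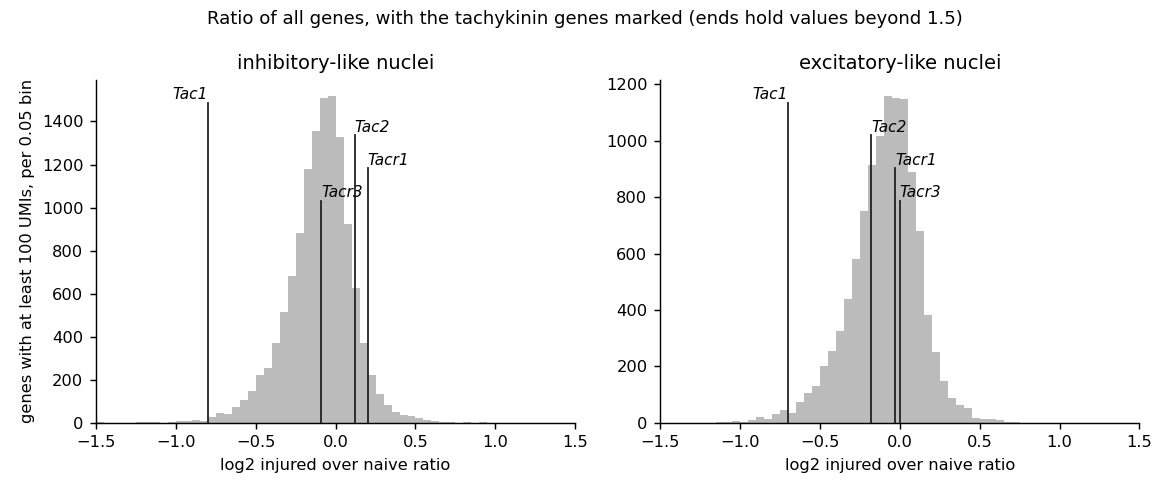
Number of genes (vertical axis) by log2 injured over naive ratio (horizontal axis, 0.05 bins) among all genes with 100 or more UMIs, for inhibitory-like (left) and excitatory-like (right) nuclei, with the 4 tachykinin genes marked by vertical lines. Tac1 sits in the lower tail at -0.80 and -0.70, and Tac2, Tacr1 and Tacr3 lie between -0.18 and 0.20. Tacr1 in inhibitory-like nuclei is at the 95th percentile of these genes, but rests on 64 and 73 UMIs, with a ratio interval that holds 1 (0.807 to 1.63).

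Within the classes, Tac1 was concentrated in 3 of the 8 excitatory-like clusters that had at least 20 nuclei in each library. Cluster 22, led by Cck (cholecystokinin, another neuropeptide) and Megf11, held Tac1 at 368.4 CPM (318.4 to 424.0) in the naive library and 284.9 CPM (241.4 to 334.0) in the injured one, with a UMI in 49 of 70 and 42 of 61 nuclei. Cluster 12, led by Th (tyrosine hydroxylase, of catecholamine synthesis) and Esr1 (oestrogen receptor alpha), held it at 360.2 CPM (313.6 to 411.9) and 178.0 CPM (148.4 to 211.8). Cluster 19, led by Skor2 and C1ql1, held it at 242.7 and 146.3 CPM.

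These 3 clusters made up 54.7% of all Tac1 UMIs of the series. Pooled over the libraries, the intervals of clusters 22, 12 and 19 did not overlap, but clusters 22 and 12 overlapped in the naive and clusters 12 and 19 (114.1 to 184.9) in the injured nuclei. Next came cluster 18 (Nms, Tshr, Calcrl) and cluster 11 (Adgrl4), at 53.5 and 50.9 CPM, whose intervals overlapped, and then cluster 23 at 14.4 CPM. Clusters 0 and 21 were at 7.88 and 5.76 CPM, with intervals that overlapped that of inhibitory-like nuclei (4.91 to 6.45), so Tac1 was a gene of some excitatory-like clusters and not of the class as such.

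The lower Tac1 level of the injured library was seen in each of the 5 excitatory-like clusters of this size with most Tac1. Its ratio was 0.773 (0.621 to 0.961) in cluster 22, 0.494 (0.394 to 0.618) in cluster 12, 0.603 (0.432 to 0.839) in cluster 19, 0.492 (0.285 to 0.829) in cluster 18 and 0.364 (0.242 to 0.535) in cluster 11. It was below 1 in 7 of 8 excitatory-like clusters, with an interval wholly below 1 in 5 and wholly above 1 in none. Cluster 23 had 0.562 (0.264 to 1.14) and cluster 0 had 1.05 (0.360 to 3.13). When each cluster counted equally in the naive and injured library, the log2 ratio of the class was -0.75, against -0.70 as the nuclei stood.

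The difference showed in the UMIs per nucleus as well as in the share of nuclei. In cluster 12 a Tac1 UMI was found in 34 of 70 naive nuclei (48.6%) and 24 of 66 injured ones (36.4%), and the highest naive nucleus held 33 UMIs and the highest injured nucleus 15. In cluster 22 the shares were near equal, 70.0% and 68.9%, while nuclei with 3 or more UMIs were 41.4% and 36.1% of the cluster. In cluster 11, 28 of 171 naive nuclei (16.4%) but 6 of 127 injured nuclei (4.72%) had 2 or more. Few nuclei weigh heavily in these sums: the 37 naive excitatory-like nuclei with 5 or more Tac1 UMIs held 49.4% of the UMIs of the class, and the 30 injured ones held 50.1%. Without the 5 nuclei highest in Tac1 in each library the log2 ratio was -0.67.

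Among the nuclei that the class names left out, cluster 8.10, led by Sst (somatostatin) and with genes of both transmitters, held Tac1 at 215.1 CPM in 19 naive and 31.3 CPM in 19 injured nuclei. The ratio there was 0.146 (0.0541 to 0.337), from 31 and 7 UMIs, but the naive UMIs lay in 6 nuclei, 1 of which held 12, and the share of nuclei with a UMI was 31.6% and 26.3%. The small excitatory-like cluster 10, of 7 naive and 6 injured nuclei, went the other way, at 153.9 and 213.6 CPM, with an interval of the ratio that held 1 (0.728 to 2.68).

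**Figure D3:**
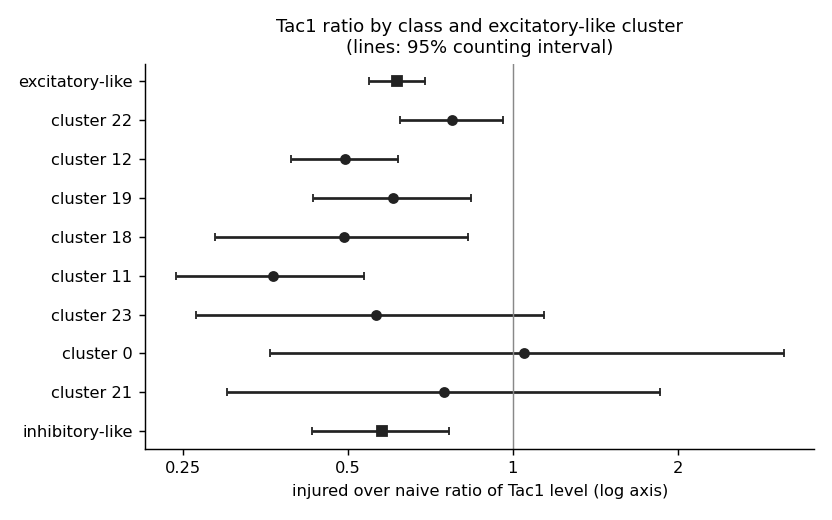
Injured over naive ratio of the Tac1 level (log axis, vertical line at 1) in the excitatory-like and inhibitory-like classes (squares) and in the 8 excitatory-like clusters, ordered by pooled level (circles), with 95% counting intervals. The 5 clusters with most Tac1 lie wholly below 1, from 0.364 to 0.773, and the 3 clusters with least Tac1 have intervals that hold 1.

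Mice of both sexes were pooled, so nuclei with only Xist UMIs and nuclei with only Y-linked UMIs were taken as coming from different mice. Any UMI of its marker placed a nucleus in a set, so free RNA may have misplaced some nuclei. The Tac1 ratio in excitatory-like nuclei was 0.672 (0.579 to 0.778) in the Xist set, from 599 naive and 516 injured nuclei, and 0.502 (0.398 to 0.631) in the Y-linked set, from 218 and 209. The direction was thus the same in both sets, which does not replace a replicate. How many mice gave the nuclei of a set is not given in the sources used here.

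Tac2, the neurokinin B gene, had 2 separate homes. Cluster 13, inhibitory-like and led besides Tac2 by Bcam, Adamts9 and Kcnj5, held it at 320.3 CPM (287.5 to 355.8) in the naive library and 328.4 CPM (296.5 to 362.7) in the injured one, and with 52.0% of all Tac2 UMIs it was the main source of the gene. Tac2 had a UMI in 87 of 139 naive (62.6%) and 98 of 133 injured nuclei (73.7%) of that cluster, which became 51.5% and 47.7% after thinning to 3000 UMIs. It accounted for 82.6% and 85.5% of the inhibitory-like Tac2 UMIs while holding 5.24% and 5.99% of the nuclei.

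The other home was excitatory-like cluster 12, the same cluster that was high in Tac1, with Tac2 at 234.0 CPM (196.7 to 276.3) and 221.5 CPM (188.3 to 258.8). It held 21.0% of all Tac2 UMIs. Cluster 11 followed at 48.0 and 22.2 CPM, and all other inhibitory-like and excitatory-like clusters with at least 20 nuclei in each library stood at 18.6 CPM or less pooled. Unnamed cluster 2, with neuron and Schwann cell markers, had 42.1 and 14.4 CPM, where 1 naive nucleus held 25 of 34 UMIs. The 3 levels from cluster 13 to cluster 11 had pooled intervals that did not overlap, while those below cluster 18 overlapped one after another.

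Tac2 was near equal between the libraries in both of its homes, with ratios of 1.03 (0.885 to 1.19) in cluster 13 and 0.946 (0.749 to 1.20) in cluster 12. In cluster 12 the Tac1 ratio of the same nuclei was 0.494, so the ligand genes of that cluster stood apart, although the difference between the ratios was not tested. Cluster 11 was lower in the injured library for both ligands, with a Tac2 ratio of 0.463 (0.292 to 0.720). Inhibitory-like cluster 20 had 15 Tac2 UMIs in 124 naive nuclei and 0 in 108 injured nuclei. Clusters 5 and 1 went the other way, with 3 and 0 naive UMIs and 16 and 5 injured UMIs. The ratio in cluster 5 was 4.83 (1.38 to 25.8). Of the 13 inhibitory-like clusters with enough nuclei, 7 were lower and 6 higher in the injured library.

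**Figure D4:**
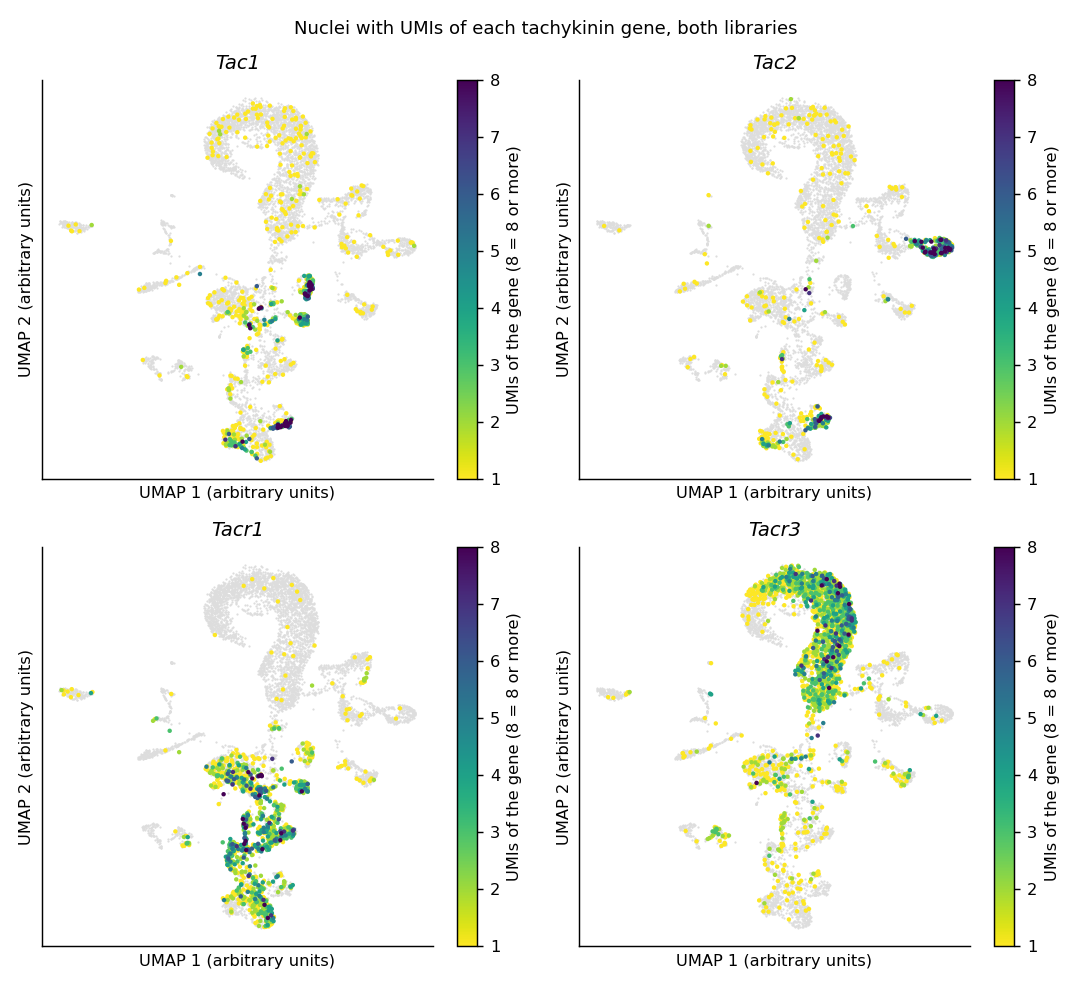
Map of all 7610 nuclei of both libraries by similarity of expression (UMAP, arbitrary units on both axes), 1 panel per gene, with nuclei coloured by their UMIs of the gene (1 to 8 or more) over grey nuclei without one. Tac1 and Tac2 fill a few compact groups, whereas Tacr1 and Tacr3 cover broad and largely separate parts of the map.

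Tacr1, the NK1 receptor gene, was more evenly spread over excitatory-like clusters than the ligands. Among excitatory-like clusters with at least 20 nuclei in each library it was highest in cluster 18, at 309.3 CPM (267.8 to 355.6) in the naive library and 235.3 CPM (199.5 to 275.7) in the injured one, where 63 of 81 (77.8%) and 50 of 66 nuclei (75.8%) had a UMI. Cluster 19 followed at 207.6 and 211.1 CPM. The pooled intervals of these did not overlap each other or that of the next cluster, but clusters 18 and 19 overlapped in injured and clusters 19 and 0 in naive nuclei. The small cluster 10, of 7 and 6 nuclei, had 234.9 and 347.0 CPM.

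Clusters 0 (Chst9, Drd1), 21 (Moxd1) and 23 (Aldh1a2) formed a middle group with overlapping intervals, at 146.5, 131.6 and 117.3 CPM pooled. The lowest excitatory-like clusters were 11, 22 and 12, at 49.9, 43.4 and 36.7 CPM, also with overlapping intervals. Clusters 22 and 12 were thus the highest in Tac1 and the lowest in Tacr1. Among inhibitory-like clusters of that size only 8.8 and 8.9, at 53.2 and 20 CPM, stood above 10 CPM, with 22 to 35 nuclei per library. Both are parts of mixed cluster 8, and 8.8 held Slc17a6 at 25.5 CPM beside 338 CPM of the inhibitory set. Cluster 8.9 held Slc17a6 at 7.49 CPM. Whether excitatory nuclei within cluster 8.8 gave its Tacr1 UMIs was not tested. The smaller clusters 8.4 and 8.5 were at 37 and 16.7 CPM pooled.

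Between the libraries, cluster 18 had a Tacr1 ratio of 0.761 (0.612 to 0.944) and was the only one of the 21 inhibitory-like and excitatory-like clusters of this size whose interval lay wholly on one side of 1. Outside these, Tacr1 was higher in the injured nuclei of unnamed clusters 2 (2.83, 1.34 to 6.71), 8.2 (2.63, 1.30 to 5.89) and 9 (2.47, 1.03 to 6.34) and of the small inhibitory-like cluster 8.4 (3.17, 1.13 to 10.2), from 6 to 42 UMIs per library. Cluster 23 had 1.25 (0.991 to 1.57). The other 6 excitatory-like clusters ran from 0.833 to 1.18. Nuclei with 5 or more Tacr1 UMIs, 47 naive and 43 injured ones, held 30% and 27.6% of the excitatory-like UMIs, so fewer of the UMIs came from a few nuclei than for Tac1.

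Tacr3, the NK3 receptor gene, was carried by 4 inhibitory-like clusters. Clusters 16 (Col24a1, Igf1, Nos1) and 15 (Cartpt, Plcg2) were highest, at 172.6 and 190.4 CPM and at 181.5 and 170.9 CPM in the naive and injured library, with overlapping pooled intervals. Cluster 17 (Pamr1, Crym, Nos1) followed at 135.4 and 167.5 CPM and cluster 5 (Mlxipl, Efhd1) at 78.2 and 80.3 CPM. These 4 clusters held 83.9% of all Tacr3 UMIs. Nos1 encodes neuronal nitric oxide synthase.

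Inhibitory-like clusters 1, 3, 4, 6 and 13 were at 4.17 to 8.90 CPM pooled, against 10.9 CPM in the excitatory-like class, and clusters 8.8, 8.9, 8.3 and 20 lay between, at 21.7 to 39.4 CPM. Among excitatory-like clusters Tacr3 was highest in cluster 18, at 35.9 and 30.8 CPM. Over the inhibitory-like class as a whole, few nuclei held many Tacr3 UMIs. Nuclei with 5 or more UMIs, 33 naive and 57 injured ones, held 10.9% and 20.9% of the inhibitory-like UMIs.

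The Tacr3 ratio was 1.10 (0.973 to 1.25) in cluster 16, 0.941 (0.840 to 1.05) in cluster 15, 1.03 (0.802 to 1.32) in cluster 5 and 1.24 (1.07 to 1.43) in cluster 17. The class ratio of 0.939 was lower than all 4 of these values. When each cluster counted equally in the naive and injured library, the log2 ratio of the class turned from -0.09 to 0.06. These 4 clusters were 61.8% of naive inhibitory-like nuclei and 56.8% of injured ones. Cluster 20 had 13 naive and 35 injured UMIs, a ratio of 2.56 (1.32 to 5.27), at a level of 12 and 30.8 CPM. Cluster 8.9 went the other way, with 19 naive and 6 injured UMIs and a ratio of 0.203 (0.0664 to 0.529). Of the 13 inhibitory-like clusters with enough nuclei, 8 were lower and 5 higher in the injured library. The interval lay wholly below 1 in 1 of them and wholly above 1 in 2.

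**Figure D5:**
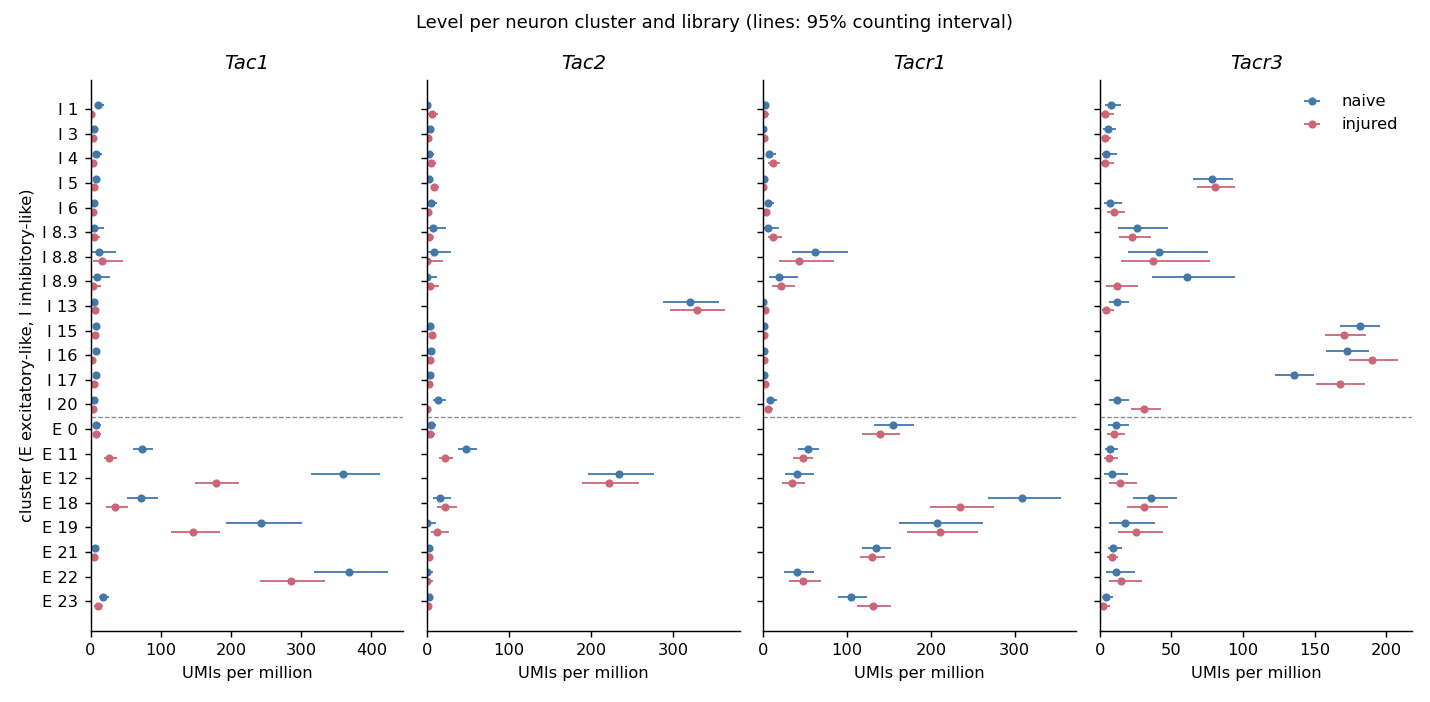
Level of each gene (UMIs per 1000000, linear axis from 0, different scale in each panel) in the 13 inhibitory-like clusters (I, above the dashed line) and 8 excitatory-like clusters (E, below it) with at least 20 nuclei in each library, naive in blue and injured in red, with 95% counting intervals. Tac1 peaks in clusters 22, 12 and 19, Tac2 in 13 and 12, Tacr1 in 18 and 19, and Tacr3 in 15, 16 and 17.

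Ligand and receptor pairs met in the same nuclei in different degrees. In cluster 19, the cluster high in both Tac1 and Tacr1, 12 of 25 naive nuclei with 2 or more Tac1 UMIs also had 2 or more Tacr1 UMIs (48.0%, 27.8 to 68.7), against 38.5% of all its nuclei. In the injured library it was 11 of 18 (61.1%, 35.7 to 82.7), against 49.1%. Read from the other gene, 60% and 39.3% of the Tacr1 nuclei had Tac1. Each interval held the share among all nuclei of the cluster.

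Tac2 and Tacr3 lay apart. Of inhibitory-like nuclei with 2 or more Tac2 UMIs, 3 of 75 naive (4%, 0.833 to 11.2) and 1 of 86 injured (1.16%, 0.0294 to 6.31) had 2 or more of Tacr3, against 17.2% and 18.9% of all inhibitory-like nuclei. The Tac2 nuclei were the deeper ones, with a median of 8033 against 6684 UMIs in the naive and 8940 against 7835 in the injured library. This is the separation of cluster 13, which had Tacr3 at 12 and 4.23 CPM, from clusters 15, 16 and 17.

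The ligand genes themselves met in cluster 12. Of its nuclei with 2 or more Tac1 UMIs, 17 of 25 naive (68.0%, 46.5 to 85.1) and 13 of 19 injured (68.4%, 43.4 to 87.4) had 2 or more of Tac2. Of all nuclei of the cluster 50.0% and 45.5% did, and each interval held that share. Read from the other gene, 48.6% and 43.3% of the Tac2 nuclei had Tac1, against 35.7% and 28.8% of all nuclei of the cluster. Pdyn was still found in some of these nuclei. In inhibitory-like nuclei 20 of 107 naive (18.7%) and 15 of 99 injured (15.2%) Pdyn nuclei had Tacr3, against the 17.2% and 18.9% of all nuclei, and 1 of 75 and 2 of 86 Tac2 nuclei had Pdyn. In cluster 12, 1 of 5 naive and 6 of 6 injured Pdyn nuclei had Tac2.

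The genes that mature, break down and receive tachykinins were read as 4 lists. Of their counted genes only Gna11 passed 1.5-fold, lower in inhibitory-like nuclei, where 2.08% of all genes were lower by as much, and none did in excitatory-like nuclei, where 2.55% were. Most genes of each class had a ratio below 1, with a median log2 ratio of -0.08. In excitatory-like nuclei 66.3% of all genes were lower than Tacr3, whose ratio was 1. For inhibitory-like nuclei the share below 1 was not computed. The counts above and below 1 that follow are to be read against this lean. For peptide maturation 9 of 9 genes had at least 100 UMIs, and 8 were below 1 in inhibitory-like and 7 in excitatory-like nuclei, with medians of -0.17 and -0.11 on the log2 scale against -0.08 for all genes. The lowest were the granule proteins Scg2, at 585.2 and 448.7 CPM in inhibitory-like (0.767, 0.745 to 0.789) and 220.4 and 155.2 CPM in excitatory-like nuclei (0.704, 0.655 to 0.757), and Chgb, at ratios of 0.740 and 0.779. The highest were Pam, the enzyme that adds the terminal amide of tachykinins, at 1.04 and 1.18, and the convertase gene Pcsk2, at 0.997 and 1.15.

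Of the genes for peptide breakdown, 4 of 5 were counted (Dpp4 had too few UMIs), 2 above and 2 below 1 in each class, with medians of -0.03 and -0.01. Mme, the neutral endopeptidase that degrades substance P, had 1.07 (0.917 to 1.24) in inhibitory-like and 0.936 (0.769 to 1.14) in excitatory-like nuclei. Ace had 1.11 and 1.41, the latter with an interval of 0.964 to 2.09. The endothelin-converting enzymes Ece1 and Ece2 had 0.864 and 0.902 in inhibitory-like and 1.03 and 0.956 in excitatory-like nuclei.

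Of the genes that couple the receptors to calcium signalling, 9 of 12 were counted, with 6 and 7 above 1. Their medians were 0.06 and 0.09, against -0.08 for all genes in each class. Plcb1 and Plcb4, phospholipase C genes, had 1.12 and 1.09 in inhibitory-like nuclei. Gna11, a Gq family gene, had 24.9 and 15.3 CPM there, a ratio of 0.615 (0.530 to 0.714), and 0.834 (0.663 to 1.05) in excitatory-like nuclei. In excitatory-like nuclei Prkca, a protein kinase C gene, had 0.980 and Itpr2, a calcium release channel gene, had 1.10. Of 6 genes for receptor desensitisation, 3 and 2 were above 1, with medians of -0.01 and -0.11. The receptor kinase gene Adrbk1 was lowest, at 0.717 (0.625 to 0.822) and 0.780 (0.610 to 0.995), and Arrb1, a beta-arrestin, had 0.943 and 0.833. The kinase genes Grk5 and Grk6 had 1.05 and 1.12 in inhibitory-like, and Grk5 and Adrbk2 1.15 and 1.03 in excitatory-like nuclei.

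The genes most like each member over the 21 clusters were ranked by the smaller of the r values of the 2 libraries, over 10829 genes. These correlations describe clusters that share their library and their depth. Tacr1 had the closest companions: Khdrbs2 (r = 0.92 naive, 0.90 injured), Syt13 (0.88, 0.88), Cacna2d1 (0.89, 0.87), Slc17a6 (0.88, 0.86) and Wipf3 (0.86, 0.91). Tac1 had Mdga1 (0.74, 0.80), Cacna2d1 (0.73, 0.75), F13a1 (0.81, 0.73), Slc17a6 (0.70, 0.72) and Lmx1b (0.70, 0.73). Slc17a6 and Lmx1b are markers of excitatory neurons that served to name the clusters, and clusters with both transmitters were left out. Likeness to these genes thus restates in part the contrast between the classes.

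For Tacr3 they were the potassium channel partner Kcnip4 (0.80, 0.78), Gsg1l (0.71, 0.77), Enox2 (0.76, 0.70), Galnt12 (0.71, 0.69) and Ntng2 (0.68, 0.68). Tac2, high in a single cluster of each class, had the weakest companions, Fbxw17 (0.83, 0.68), Fgd3 (0.67, 0.62), Dnah7c (0.67, 0.62), Mylk (0.59, 0.59) and Dnah5 (0.69, 0.58). By ranks in place of values, none of these 5 was among the 5 most alike.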

How the data were processed

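Single-nucleus RNA was measured in 2 libraries (naive and injured, 8 pooled mice each) with 10x 3′ v3 chemistry, per the labels. The authors deposited raw UMI counts for 19575 genes in 7610 nuclei; Cell Ranger 3.0.2, Seurat and build mm10 are named in the submitters' processing notes. How nuclei were filtered, whether intronic reads counted and which annotation served were not given in the sources used here. Also deposited by the authors were values on a natural log scale, ln of 1 plus the scaled count of a nucleus, which served only for an alternative.

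All nuclei were clustered together (scanpy 1.11.5: 2000 variable genes without peptide and peptide receptor genes, 30 principal components, 15 neighbours, Leiden resolution 1.0). Clusters were named from marker lists. Inhibitory-like needed a transmitter ratio of at least 10, excitatory-like of at least 4, thresholds set after the data had been seen. A name also needed 3 markers with at least 3 UMIs each. Mixed cluster 8 was clustered again and named by part. Scrublet called 106 naive (2.61%) and 7 injured nuclei (0.197%) doublets, so it did not work in the injured library, and its calls were removed only as an alternative.

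Counts were summed per class or cluster and library and scaled to 1000000. Intervals (95%) were exact Poisson for levels, Clopper-Pearson for shares and conditional binomial for ratios, and cover counting error only. Ratios were checked only on simulated Poisson counts, the model that the intervals assume. That check cannot show how the intervals hold where a gene's UMIs are gathered in few nuclei. A gene counted as called past 1.5-fold with at least 100 UMIs in the class. Libraries held 30602222 and 32934588 UMIs, so 3 counts, the limit that a count of 0 allows, are 0.098 and 0.0911 CPM. Likeness was Pearson r of log2(CPM + 1) over clusters with at least 20 nuclei in each library, among genes with at least 200 UMIs. Named were the 4 members, per pathway list the 2 highest and 2 lowest ratios in each class, and the 5 most alike genes of each member, without predicted, mitochondrial, ribosomal protein and sex-linked marker genes. Some genes that these rules would name are not reported here. The genes that lead a cluster were named after their values were seen. The members and all lists were chosen with earlier results of these data known.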

Additional observations from a re-analysis of the deposited data

Results flagged for a closer look

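For each gene in each class, nuclei with Xist but no Y-linked UMIs were set beside nuclei with Y-linked but no Xist UMIs. In 2 of these 8 cases the injured over naive ratios lay on opposite sides of 1, and their counting intervals did not overlap. What share of all genes would show the same was not computed, so the count of 2 has no background. For Tac2 in inhibitory-like nuclei the ratio was 1.36 (1.13 to 1.63) in the Xist set, from 18.0 to 24.5 CPM, and 0.828 (0.659 to 1.04) in the Y-linked set, from 30.1 to 24.9 CPM. The naive sets thus stood further apart than the injured sets. For Tacr1 in excitatory-like nuclei the ratio was 1.07 (0.964 to 1.20) in the Xist set, from 120.6 to 129.6 CPM, and 0.760 (0.637 to 0.906) in the Y-linked set, from 141.3 to 107.4 CPM. These sets were defined from the data and each comes from an unknown number of mice, and the difference between them was not tested.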

How the results depend on the processing

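No paired analysis was possible because each group had 1 pooled library. Of 120 injured over naive values under the alternatives, 112 stayed within the counting interval of the main value. The alternatives in part repeat each other. The deposited values gave the same ratios as weighting every nucleus alike. The 2 scalings (median of all genes and trimmed mean) each removed a log2 of -0.08. The Tac1 ratios kept their sign (log2 -1.06 to -0.51 in inhibitory-like and -0.99 to -0.57 in excitatory-like nuclei). They fell short of 1.5-fold at -0.51 (own transmitter UMIs) and -0.57 (only Xist UMIs). In nuclei with only Y-linked UMIs the log2 ratio was -0.99 for Tac1, -0.53 for Tac2 and -0.40 for Tacr1 in excitatory-like, and -0.27 for Tac2 in inhibitory-like nuclei. With only Xist UMIs it was 0.44 for Tac2 in inhibitory-like and 0.10 for Tacr1 in excitatory-like nuclei. At Leiden resolution 2.0 Tacr1 in inhibitory-like nuclei had 0.77, and with clusters weighted alike Tacr3 there had 0.06. The cause was not tested.

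Excitatory over inhibitory log2 ratios left their counting interval in 7 of 40 values. With each nucleus classed by its own transmitter UMIs they were 3.19 for Tac1 in the injured library, 4.22 and 3.68 for Tacr1 in the naive and injured library and -2.62 for Tacr3 in the naive library. At Leiden resolution 0.5 Tacr1 had 5.92 and 5.36, and at 2.0 its injured value was 4.54.

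Shares of nuclei follow depth and threshold by construction. In the naive and injured library, Tac1 in excitatory-like nuclei had 15.8% and 12.2% at 3000 UMIs, 13.0% and 9.81% at 2000, 15.2% and 10.8% with at least 2 UMIs and 10.5% and 6.99% with at least 3. Tacr1 there had 25.5% and 26.1%, 20.4% and 18.7%, 26.6% and 32.9%, and 14.9% and 18.4%. Tac2 in inhibitory-like nuclei had 3.58% and 4.07%, 2.42% and 3.39%, 2.83% and 3.87%, and 2.11% and 2.88%. Tacr3 there had 22.5% and 20.7%, 15.8% and 14.1%, 17.2% and 18.9%, and 8.10% and 9.99%.

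With genes of at least 20 UMIs the median of the breakdown list in inhibitory-like nuclei was -0.15. By Spearman rho 2 of the 5 genes most like Tac1, 0 of Tac2, 2 of Tacr1 and 3 of Tacr3 were shared with the Pearson list. The remaining alternatives, scaling and the deepest nuclei among them, moved no injured over naive ratio out of its interval. Removing the Scrublet calls says nothing about doublets in the injured library. With 1 library per group no replicate could be left out, and differences between mice are not covered by any interval.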
